A study of Homo sapiens with 27 samples.

Results

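The representation of shRNAs in vehicle-treated UMSCC1 cells was compared with that in vehicle-treated UMSCC25 cells, across a pooled kinome library. An shRNA was a member if its counts, added up across the 6 libraries of these cells (3 plates per line), reached 10, which kept 3085 of the 3177 shRNAs in the table. The other 92 shRNAs fell under that limit, and 43 of them had no count in any of the 6 libraries. Directly inside the limit lay 11 shRNAs with exactly 10 counts, and directly outside it lay 5 with exactly 9.

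UMSCC1, UMSCC25 and UMSCC8 are established cell lines of head and neck squamous cell carcinoma. In the whole series, 27 libraries from these 3 lines count shRNAs recovered from genomic DNA after exposure to DMSO, to gefitinib, an inhibitor of the epidermal growth factor receptor (EGFR), or to AZD8931, an inhibitor of EGFR and related ERBB receptors. All groups carried the same MISSION TRC1 human kinome shRNA library, delivered by lentivirus and selected with puromycin. The DMSO cells of both lines received the vehicle for 72 hours and medium alone for another 72 hours, and their DNA was taken at 144 hours. The inhibitor plates had the same schedule, with 300 nM gefitinib or 30 nM AZD8931 in the protocol text, whereas another label of the same samples gives 1.0 µM for each, so the dose is uncertain.

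An shRNA is a short hairpin RNA, expressed from a cassette that the virus inserts into the genome, which is processed into a small RNA that lowers the messenger RNA it pairs with. In a pooled screen a cell is meant to carry a single cassette, which serves as a barcode: an shRNA whose carriers divide more slowly, or die, takes a smaller share of the reads. The share that an shRNA takes also depends on how many cells received it and on which cells were carried from plate to plate. Each line was transduced separately, on duplicate plates, and the sources used here do not state whether these were combined, so that a difference between the lines and a difference between their transduced cultures cannot be told apart. The state of the pool before treatment was not analysed here. The 3 plates of a line were exposed after transduction, and p-values below measure the spread between such plates, which may be technical. The libraries count cassettes and hold no expression, so no marker of either line could be checked, and the table lists clone identifiers without target genes or hairpin sequences.

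The 3 UMSCC25 libraries held 460550, 468148 and 464740 counts, and the 3 UMSCC1 libraries held 460879, 258742 and 491217. The second UMSCC1 plate was thus the shallowest of the 6, with a median of 28 counts per shRNA against 63 to 73 in the other 5. Levels are in CPM, counts per 1000000 of library size, with library sizes adjusted by the trimmed mean of M-values (TMM). For an shRNA at 0 the upper limit was set at 3 counts, between 5.85 and 14.5 CPM in a single library, which covers counting error only.

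UMSCC1 plates held a less even pool than UMSCC25 plates in these libraries, although 3 against 3 plates cannot pass a threshold of 0.05. In UMSCC1 163, 205 and 198 of the 3177 shRNAs were at 0 counts, and in UMSCC25 123, 126 and 162 were. The means were 188.7 ± 22.5 and 137 ± 21.7 (SD, n = 3 per line, exact two-sided permutation test, p = 0.1, the smallest this design allows). The 10 most abundant shRNAs took 19.2%, 31.8% and 20.9% of the counts on the UMSCC1 plates and at most 19.1% on each UMSCC25 plate. An effective number of shRNAs, the number of equally abundant shRNAs with the same diversity, was 919, 482 and 894 in UMSCC1 and 1041, 994 and 996 in UMSCC25. For both measures the groups did not overlap, with p = 0.1 by the same exact permutation test. The share of the most abundant shRNA did overlap, with 6.46%, 14.0% and 6.20% in UMSCC1 and 4.98%, 5.34% and 6.22% in UMSCC25 (p = 0.2 by the same exact permutation test). The second UMSCC1 plate had the least even pool. After every library was thinned to 258742 counts, 204, 205 and 231 shRNAs were at 0 in UMSCC1 and 144, 150 and 178 in UMSCC25.

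Libraries resembled those of their own line, clearly so in UMSCC25 and less so in UMSCC1. Across shRNAs, the Pearson correlation of log2(CPM + 1) lay between 0.866 and 0.881 for the 3 pairs of UMSCC25 plates, and between 0.762 and 0.807 for the 3 pairs of UMSCC1 plates. For the 9 pairs of 1 UMSCC1 and 1 UMSCC25 plate it lay between 0.718 and 0.771, a range that overlapped that of the UMSCC1 pairs. With a UMSCC8 DMSO plate, the correlation reached 0.786 for a UMSCC1 plate and 0.810 for a UMSCC25 plate. Each of the 6 libraries had its closest partner within its own line. These correlations are across shRNAs, which share the abundance they had in the viral pool, and are not independent replicates.

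The DMSO plates of UMSCC1 varied more among themselves than those of UMSCC25. The biological coefficient of variation that edgeR estimated within a line was 0.518 for UMSCC1 and 0.309 for UMSCC25. The SD of log2(CPM + 1) over the 3 plates had a median of 0.634 in UMSCC1 and 0.365 in UMSCC25, and it was the larger in UMSCC1 for 2257 of 3085 shRNAs (73.2%). A single plate exceeded the other plates of its line by more than 8 times for 69 shRNAs in UMSCC1, of which 16, 20 and 33 were on plates 1, 2 and 3, and for 26 shRNAs in UMSCC25. The greater spread in UMSCC1 was not confined to the shallow second plate, since leaving out 1 UMSCC1 plate at a time gave a coefficient between 0.469 and 0.543. On the gefitinib plates the lines were nearly alike, with 0.512 in UMSCC1 and 0.487 in UMSCC25. On the AZD8931 plates the coefficients were 0.665 and 0.412.

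Between the lines, 212 of 3085 shRNAs differed (6.87% of those tested, edgeR quasi-likelihood test, Benjamini-Hochberg adjusted p under 0.05). Of these, 98 were higher in UMSCC1 (3.18%) and 114 were lower (3.7%). All 212 had plates that did not overlap between the lines, against 873 of all 3085 shRNAs (28.3%), with 397 higher (12.9%) and 476 lower (15.4%), and 661 of those 873 did not pass the test. Without TMM, scaling by total counts alone gave 63 higher and 143 lower, so that 30.6% of the calls were higher in place of 46.2%, and it moved the median log2 difference of all shRNAs from 0.03 to -0.13. The number of calls fell whichever UMSCC25 plate was left out, so no single plate of that line carried it. It was 17, 26 and 22 without UMSCC25 plate 1, 2 or 3, and 156, 214 and 314 without UMSCC1 plate 1, 2 or 3. The biological coefficient of variation was 0.423 in 1 fit of both lines, 0.309 within UMSCC25 and 0.518 within UMSCC1. Within UMSCC25 it was 0.323, 0.310 and 0.292 without plate 1, 2 or 3. Whether the unequal spread of the lines set these numbers of calls was not tested. The 14 shRNAs that remained called whichever plate was left out comprised 2 higher and 12 lower ones, with a smallest difference of 4.17-fold and a median of 6.57-fold. No call changed its direction when a plate was left out, but the lack of overlap nearly fixed that outcome beforehand, and nothing is read from it. DESeq2 called 326 shRNAs, 210 of them among the 212. A fit that also held the inhibitor plates of both lines, and so 1 estimate of the spread over 18 libraries, called 93 shRNAs, 92 of them among the 212.

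Among the 98 higher shRNAs the log2 difference ranged from 0.92 to 3.64 with a median of 1.57, or 2.97-fold, and 25 exceeded 4-fold. Among the 114 lower shRNAs it ranged from -8.75 to -0.96 with a median of -1.96, or 3.88-fold lower, and 56 were more than 4-fold and 25 more than 8-fold lower. The fitted values of the 8 lower shRNAs at 0 in UMSCC1 depend on the prior count; with these set to their bounds, at least 11.9-fold to 47.6-fold lower, the median was again -1.96. The higher shRNAs had a median of 485 CPM in UMSCC1 and 147 CPM in UMSCC25, whereas the lower ones had 82.0 and 312 CPM. The median over all 3085 shRNAs was 0.03, and their middle range ran from -0.54 to 0.59. These sizes were taken on the plates that chose the shRNAs, and describe them only.

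Calls occurred in every class of abundance, but the percentage called rose with it, mostly through the higher calls. When the 3085 shRNAs were ordered by mean level into 4 equal classes, with median levels of 33.2, 108, 222 and 512 CPM, the percentage called was 3.76, 6.74, 7.39 and 9.6 from the least to the most abundant class. The higher calls numbered 4, 21, 30 and 43, and the lower calls 25, 31, 27 and 31. The median standard error of the log2 difference fell over the same classes from 0.96 to 0.55, 0.42 and 0.32, so that a 2-fold difference was within about 1 standard error for a rare shRNA. Accordingly, 627 of the 835 shRNAs with more than a 2-fold difference did not pass the test.

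Some shRNAs were at 0 on every DMSO plate of 1 line. Those tested reached the limit of 10 counts only through the other line. The direction of every difference and call below, and the smallest sums, thus follow from that rule, and nothing is read from the numbers called. In the 3 UMSCC1 libraries 15 shRNAs were at 0 counts, with 12 to 179 counts summed over the UMSCC25 plates. Of these 15, 8 were called lower, beside 3.7% of all shRNAs. In the 3 UMSCC25 libraries 12 shRNAs were at 0, with 10 to 31 counts summed over the UMSCC1 plates. Of these 12, 0 were called by the edgeR quasi-likelihood test, beside 3.18% of all shRNAs called higher. By that test 8 of the 12 had an unadjusted p under 0.05. DESeq2 called 1, the edgeR exact test 4 and limma-voom 0. The limit that 0 counts allow over a group was 2.54 CPM in UMSCC1 and 2.03 CPM in UMSCC25. An shRNA at 0 on these plates was not always missing from the culture: 12 of the 15 had a count on an inhibitor plate of UMSCC1, as did 7 of the 12 on an inhibitor plate of UMSCC25. More than 3 counts, summed over the inhibitor plates of the line, were found for 10 of the 15 and for 4 of the 12. At equal depth of 258742 counts per library the numbers at 0 were 19 and 17. Leaving out a plate of the line at 0 can only keep or raise the 15 and the 12. It gave between 33 and 38 for UMSCC1 and between 21 and 26 for UMSCC25.

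The shRNA with the smallest p was TRCN0000002028, which was lower in UMSCC1. Its counts were 54, 29 and 47 on the UMSCC1 plates and 692, 729 and 591 on the UMSCC25 plates, or 116 ± 24.4 and 1359 ± 147 CPM (SD, n = 3 per line). The groups lay far apart, at a log2 difference of -3.57 (SE 0.30, edgeR quasi-likelihood adjusted p = 5.99e-06), 11.8-fold lower. On the gefitinib plates the log2 difference between the lines was -3.78 and on the AZD8931 plates it was -3.46.

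TRCN0000000810 had 0 counts on all 3 UMSCC1 plates and 79, 55 and 45 counts on the UMSCC25 plates, which was the largest sum among the called shRNAs at 0 in UMSCC1. Against the limit of 3 counts over the group it was at least 47.6-fold lower in UMSCC1 (edgeR quasi-likelihood adjusted p = 0.00206). It was present on the inhibitor plates of UMSCC1, with 7, 21 and 10 counts under gefitinib and 3, 3 and 2 under AZD8931. On the UMSCC25 inhibitor plates it had 51, 30 and 64 counts under gefitinib and 91, 58 and 52 under AZD8931, so that the lines differed in the same direction with a log2 difference of -1.94 and -4.10. The first of these did not pass the test (edgeR quasi-likelihood adjusted p = 0.132).

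TRCN0000006198 had the smallest p among the higher shRNAs. Its counts were 321, 162 and 257 on the UMSCC1 plates and 86, 47 and 69 on the UMSCC25 plates, or 661 ± 145 and 137 ± 40.0 CPM (SD, n = 3 per line). The log2 difference was 2.27 (SE 0.35, edgeR quasi-likelihood adjusted p = 0.00210), 4.82-fold higher, with no overlap. It was 1.88 on the gefitinib plates and 3.19 on the AZD8931 plates.

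TRCN0000000370 followed, and was among the most abundant shRNAs of the pool. Its counts were 29787, 11893 and 28880 on the UMSCC1 plates and 13713, 15123 and 13710 on the UMSCC25 plates, or 59499 ± 4511 and 28743 ± 1621 CPM (SD, n = 3 per line). The raw count of UMSCC1 plate 2 was below all UMSCC25 counts, and only after scaling did the groups separate, at a log2 difference of 1.05 (SE 0.16, edgeR quasi-likelihood adjusted p = 0.00210), 2.07-fold higher. Its call was lost without UMSCC25 plate 1 (adjusted p = 0.0534) or plate 3 (adjusted p = 0.0508), at log2 differences of 1.02 in each fit. The log2 difference was 1.26 on the gefitinib plates (edgeR quasi-likelihood adjusted p = 0.00488). On the AZD8931 plates it was 1.04 and did not pass the test (edgeR quasi-likelihood adjusted p = 0.0590). No shRNA at 0 in UMSCC25 was called, so no shRNA with a bound was available on this side.

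The inhibitor plates of both lines came from the same transduced cultures but were counted in other libraries, so the line difference could be read again there. Between the lines, the same test called 230 of the 3085 shRNAs on the gefitinib plates (7.46%), 102 higher (3.31%) and 128 lower (4.15%) in UMSCC1. On the AZD8931 plates it called 298 (9.66%), 156 higher (5.06%) and 142 lower (4.6%). DESeq2 called 409 on the gefitinib plates and 588 on the AZD8931 plates. These numbers depended on the plates kept as well. With gefitinib the edgeR calls were 85, 119 and 134 without UMSCC1 plate 1, 2 or 3 and 85 without UMSCC25 plate 2. With AZD8931 those calls were 107 without UMSCC1 plate 3, and 127, 6 and 3 without UMSCC25 plate 1, 2 or 3. Of the 212 shRNAs called on the DMSO plates, 208 had the same sign on the gefitinib plates (98.1%) and 201 on the AZD8931 plates (94.8%), whereas of all 3085 shRNAs 71.1% and 69.4% had. Of the 98 higher shRNAs, 95 lay above 0 with gefitinib and 95 with AZD8931, where 51.1% and 51.2% of all shRNAs did, and of the 114 lower shRNAs 113 and 106 lay below 0, where 48.7% and 48.6% of all did (48.8% on the DMSO plates). The plates of the lines did not overlap, in the same direction, for 61 and 62 of the 98 (14.6% and 15.6% of all shRNAs) and for 81 and 76 of the 114 (14.7% and 19.9% of all). In the same direction 78 of the 212 were called with gefitinib (36.8%) and 67 with AZD8931 (31.6%). Against each inhibitor's own lists, 34.3% of the higher and 33.6% of the lower calls with gefitinib were also calls on the DMSO plates, and 20.5% and 24.6% of those with AZD8931. The number called in the opposite direction was 0 with either inhibitor by the edgeR quasi-likelihood test and by DESeq2, and 0 with gefitinib and 1 with AZD8931 had an unadjusted p under 0.05 that way.

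The 98 higher shRNAs had a median log2 difference of 1.57 on the DMSO plates, 1.25 with gefitinib and 1.47 with AZD8931, and the 114 lower ones had -1.96, -1.67 and -1.56. The DMSO values were measured on the plates that chose the shRNAs. As a share of all counts, the 98 higher shRNAs took 12.5%, 10.5% and 11.6% on the UMSCC1 DMSO plates and 5.50%, 5.83% and 5.42% on the UMSCC25 DMSO plates. The abundant shRNA TRCN0000000370, whose call was lost without UMSCC25 plate 1 or 3, made up 6.46%, 4.60% and 5.88% of the UMSCC1 counts and 2.98%, 3.23% and 2.95% of the UMSCC25 counts. Without it the other 97 took 6.08%, 5.92% and 5.70% in UMSCC1 and 2.52%, 2.60% and 2.47% in UMSCC25. On the gefitinib plates the 98 took 10.7%, 11.7% and 10.5% in UMSCC1 and 5.18%, 5.35% and 4.47% in UMSCC25, and the 97 took 5.55%, 6.25% and 5.78% against 2.59%, 2.97% and 2.94%. The 114 lower shRNAs took 1.74%, 1.53% and 1.76% on the UMSCC1 gefitinib plates and 5.16%, 5.52% and 4.66% on the UMSCC25 gefitinib plates. With AZD8931 they took 1.68%, 1.89% and 1.78% in UMSCC1 and 4.83%, 5.07% and 4.81% in UMSCC25. On the gefitinib and AZD8931 plates the shares of the lines did not overlap for these sets. They did not overlap on the DMSO plates either, but there the sets were chosen for such differences, and nothing is read from it.

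Over all 3085 shRNAs the Pearson correlation of the line difference was 0.533 between DMSO and gefitinib plates, 0.438 between DMSO and AZD8931 plates, and 0.326 between the inhibitors. Among the 771 most abundant shRNAs it was 0.708, 0.643 and 0.510. These points share their transduced cultures and are a description across shRNAs. A direct test of whether the line difference itself changed with an inhibitor, over the 18 libraries of both lines, called 0 of 3085 shRNAs for gefitinib and 0 for AZD8931 with edgeR. By limma-voom the numbers were also 0, and at an unadjusted p under 0.05 edgeR gave 145 shRNAs (4.7%) for gefitinib and 341 (11.1%) for AZD8931. Leaving out UMSCC1 AZD8931 plate 2 brought the number called for AZD8931 to 12, and leaving out UMSCC25 gefitinib plate 1 or 2 brought it to 1.

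The remaining line, UMSCC8, was used to place the called shRNAs, with its 3 DMSO libraries of 427180, 410641 and 506971 counts. The first of these stood apart, with 328 shRNAs at 0 against 87 and 81 in the others. Of the 114 lower shRNAs, 80 had a UMSCC8 level nearer to that of UMSCC25 than to that of UMSCC1 on the log2 scale (70.2%), and of the 98 higher shRNAs 58 had (59.2%), whereas of all 3085 shRNAs 55.4% had. The mean level in UMSCC8 lay between those of the other lines for 80 of the 114 and for 79 of the 98, and for 31.9% of all shRNAs. Since the called shRNAs were chosen for a wide gap between UMSCC1 and UMSCC25, a level in between is more readily met among them, and nothing is read from it. The same choice, with the greater spread of the UMSCC1 DMSO plates, can also place UMSCC8 nearer to UMSCC25. The UMSCC8 mean moreover includes the first plate, so nothing is read from the percentages nearer to UMSCC25 either. The higher shRNAs took 7.05%, 7.57% and 7.98% of the UMSCC8 counts and the lower ones 4.02%, 4.19% and 4.00%. Of the share of the higher ones, TRCN0000000370 alone made up 3.14%, 3.84% and 4.38% of all UMSCC8 counts, and the other 97 took 3.91%, 3.73% and 3.60%.

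TGFBR1 and TGFBR2, the type I and type II receptors of transforming growth factor β, are serine/threonine kinases that act as a pair. Ligand binds the type II receptor, which phosphorylates the type I receptor, which in turn phosphorylates SMAD proteins. In GRCh38 with the GENCODE 29 annotation, TGFBR1 spans chromosome 9, 99104038 to 99154192, and TGFBR2 chromosome 3, 30606502 to 30694142, both on the plus strand; the submitters' notes name the older build hg19, and these positions belong to the genes only. The paper pairs 4 of the shRNAs with TGFBR1 and 2 with TGFBR2, and these 6 are the only ones with a gene name in the sources used here. The paper lists them under genes that it ranked on their shRNAs combined, as lower with an inhibitor, and some of these shRNAs did not fall significantly by themselves. Its UMSCC25 entries use these same DMSO plates as controls. Their UMSCC25 DMSO levels were thus part of how they were chosen, and the line differences below are not free of that choice. On the DMSO plates 0 of the 6 differed between UMSCC1 and UMSCC25 by the edgeR quasi-likelihood test (6.87% of all shRNAs did), 2 had an unadjusted p under 0.05, and DESeq2, the edgeR exact test and limma-voom called 0 each.

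Of the TGFBR1 shRNAs, TRCN0000039776 had 14, 7 and 7 counts on the UMSCC1 plates and 50, 43 and 23 on the UMSCC25 plates. The levels did not overlap, with 30.4, 33.9 and 13.6 CPM in UMSCC1 against 102, 87.0 and 46.5 CPM in UMSCC25, at a log2 difference of -1.62 (SE 0.72, edgeR quasi-likelihood adjusted p = 0.192). TRCN0000039774 had 87, 12 and 7 counts in UMSCC1 and 3, 0 and 17 in UMSCC25, which overlapped, and its log2 difference of 2.67 (SE 1.10, edgeR quasi-likelihood adjusted p = 0.159) depended on single plates of both lines. It was 1.32 without UMSCC1 plate 1 and 4.72 without UMSCC25 plate 3, neither of which passed the test. Without UMSCC1 plate 3 it became 3.19 and passed the test (edgeR quasi-likelihood adjusted p = 0.0497). TRCN0000039775 had 60, 35 and 20 counts in UMSCC1 and 50, 28 and 39 in UMSCC25 and TRCN0000039777 had 37, 56 and 36 against 100, 48 and 107. Both overlapped between the lines, at log2 differences of 0.49 (SE 0.59) and -0.34 (SE 0.54). With 1 plate left out at a time these ranged from 0.10 to 0.91 and from -1.18 to -0.02, the values farthest from the full fit being 0.91 without UMSCC1 plate 3 and -1.18 without UMSCC1 plate 2, and neither shRNA passed the test in any of these fits.

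Of the TGFBR2 shRNAs, TRCN0000040008 had 11, 23 and 14 counts in UMSCC1 and 8, 6 and 4 in UMSCC25. Its levels did not overlap, with 23.9, 111 and 27.3 CPM against 16.3, 12.1 and 8.1 CPM, at a log2 difference of 2.08 (SE 0.99, edgeR quasi-likelihood adjusted p = 0.218), and without the second UMSCC1 plate it was 1.07. TRCN0000040011 had 50, 24 and 25 counts in UMSCC1 and 52, 54 and 73 in UMSCC25, with a log2 difference of -0.42 (SE 0.51), between -0.62 and -0.11 with 1 plate left out, and overlapping levels. The shRNAs to 1 receptor thus pointed in both directions, with SEs of 0.51 to 1.10 on the log2 scale, and shRNAs to 1 gene share their target and are not replicates of a line.

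Clone numbers were the one further property that the table gave. Of 2639 pairs of shRNAs with consecutive clone numbers, 342 held a called shRNA, 7 were called in the same direction and 6 in opposite directions. Among the neighbours of called shRNAs, 7.32% were called, beside 6.87% of all shRNAs. The Pearson correlation of the line difference between neighbours was 0.05, as a description across pairs that share libraries, whereas that of their level in UMSCC25 was 0.23. Clones with consecutive numbers were not taken as clones of 1 gene, because the sources used here do not pair the numbers with genes.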

How the data were processed

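Genomic DNA of 27 plates from 3 head and neck squamous carcinoma lines was sequenced over the shRNA cassette. The authors deposited raw counts per shRNA (one table, whole numbers, not normalized), with Bowtie 1.0.0, edgeR and hg19 named in the submitters' processing notes, without roles; the paper cites the BiNG!S pipeline. No column was left out (0 columns), and 6 libraries, of UMSCC8 with inhibitors, entered only an alternative fit of all 27. Groups and replicates came from the sample titles.

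The shRNAs with at least 10 counts over the 6 DMSO libraries of UMSCC1 and UMSCC25 were tested with edgeR 4.0.16 (R 4.3.3): TMM scaling, robust quasi-likelihood fit with line as the only term, Benjamini-Hochberg adjustment over all 3085, threshold 0.05. The inhibitor plates were fitted alike on the same shRNAs, and the interaction over 18 libraries. DESeq2 1.42.0, limma 3.58.1, other scalings, filters and fits, and leaving out each library were alternatives; limma-voom with a variance weight per line was added after seeing the data. Single values per library were compared by an exact permutation test. The scripts were tested on simulated data.

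Depth was 258742 to 491217 counts per library in the 6 libraries compared. Besides the TGFBR1 and TGFBR2 shRNAs, at most 2 shRNAs were named per direction: the smallest p without overlap, and the called shRNA at 0 in the other line with most counts, or else the next smallest p. The members and lists were chosen with earlier results of these data known.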

Additional observations from a re-analysis of the deposited data

How the results depend on the processing

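No named difference changed direction under the alternatives run. No DMSO call did when a plate was left out, which was nearly fixed beforehand because their plates did not overlap. The 212 calls between DMSO plates became 326 (166 higher) with DESeq2, whose 62 adjusted p-values given as NA were left out, 316 (153 higher) with the edgeR exact test, 196 with limma-voom, 179 (102 higher) with a variance weight per line, 93 (41 higher, 52 lower) in the fit of 18 libraries and 154 in that of 27. Scaling by total counts gave 206 (63 higher), and the upper quartile 221. Minimum counts of 1 and 100 gave 219 and 224. Leaving out 1 library gave 17 to 314 calls, 3 to 164 higher and 14 to 150 lower, and 0 to 1 of the TGFBR1 and TGFBR2 shRNAs. On the gefitinib plates DESeq2 gave 409 calls and leaving out 1 library 85 to 203, and on the AZD8931 plates 588 and 3 to 425, where the lowest values were 6 and 3 without UMSCC25 plate 2 or 3. The interaction gave 0 to 12 for AZD8931 (12 without UMSCC1 AZD8931 plate 2, 1 without UMSCC25 gefitinib plate 1 or 2) and 0 throughout for gefitinib. The shRNAs at 0 in UMSCC25 were 12 to 26 and those at 0 in UMSCC1 15 to 38. With DESeq2 calls 16 neighbouring pairs had the same and 10 opposite directions. The cause was not tested.

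Plates of the lines share replicate numbers. The deviations of plates with the same number correlated between 0.0082 and 0.027 for DMSO. For gefitinib they correlated between -0.016 and 0.092, and for AZD8931 between 0.063 and 0.204. The numbers were therefore not taken as a pairing. Each DMSO plate correlated best with its own number, by small margins such as 0.0082 against 0.0061 for UMSCC1 plate 3. Not every plate did so with the inhibitors, and whether the plates were paired is not settled by these values. With the replicate block the calls were 208 on the DMSO plates, 241 with gefitinib and 589 with AZD8931, and 0 for either interaction.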
